A study of Mus musculus with 2 samples.

Results

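The genes described here carry the symbols of ubiquitin-conjugating enzymes, called E2 enzymes, and membership was set by symbol. Not all of them encode an active E2, as described below. The family was chosen with earlier results of these data known. Every protein-coding gene whose mouse symbol begins with Ube2 followed by a letter was taken, which gave 37 genes of 21474 protein-coding genes and of 43346 Ensembl genes in all. They were measured by paired-end RNA-seq of polyadenylated RNA in G1E-ER4, an immortalized mouse erythroid line labelled male. The parent G1E cells lack Gata1, the master transcription factor of red cell development, and G1E-ER4 cells carry GATA1 fused to the ligand-binding domain of the estrogen receptor, so that estradiol switches it on. Both libraries carry this fusion and are labelled as Gata1 restored with differentiation set off by estradiol. Dose and duration are not stated. The labels shorten estradiol to E2, which is unrelated to the enzymes. Here E2 always means the enzymes. The 2 libraries form 1 group, so there is no contrast between conditions. What can be read is which E2 genes these cells expressed, at what level and as which transcripts.

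Ubiquitin is a small protein that is joined to other proteins to mark them for destruction by the proteasome or to change what they do. An E1 enzyme activates it, an E2 enzyme carries it on a cysteine in its active site, and an E3 ligase chooses the protein that receives it. Related modifiers, SUMO, NEDD8 and ISG15, are carried by E2 enzymes of their own. In maturing red cells this system helps to clear ribosomes, organelles and other proteins, and the E2 enzymes best known there are UBE2O, which also acts as its own E3, and UBE2H, the partner of an E3 complex that holds MAEA.

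Estimated counts, rounded per gene, summed to 68901069 in replicate 1 and 51923111 in replicate 2. Both libraries cite the same biosample record, so the spread between them may be technical. All 7 erythroid markers checked were detected in both libraries, among them Gata1 at 1498 and 2429.8 TPM. None of the 15 markers of T cells, B cells, myeloid cells, endothelium and fibroblasts reached 1 TPM. TPM is the abundance of a transcript corrected for its length and scaled to a fixed total, so it can be compared between genes. In bulk RNA, fewer cells with a transcript and less of it in each cell cannot be told apart. The sources used here do not state a strand setting for counting, which leaves levels uncertain wherever exons of opposite-strand genes overlap.

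The active site shows what most of the family shares. In 22 of the 37 genes the coding sequence holds a His-Pro-Asn motif with a cysteine shortly after it, 10 residues after the histidine in 20 genes and 11 in Ube2h and Ube2k. The stretch from the histidine codon to the cysteine codon is shown for ubiquitin, NEDD8 and ISG15 enzymes that span a wide range of levels, with the codons for His-Pro-Asn and Cys in capitals and the bases between them in lower case. Sequences are those of GENCODE M21 transcripts on mm10.
Ube2s (chr7:4810479-4810511, minus strand): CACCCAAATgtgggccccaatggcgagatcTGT
Ube2c (chr2:164771947-164771979, plus strand): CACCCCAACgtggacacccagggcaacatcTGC
Ube2m (chr7:13036226-13036258, minus strand): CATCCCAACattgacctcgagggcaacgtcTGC
Ube2l3 (chr16:17160042-17160074, minus strand): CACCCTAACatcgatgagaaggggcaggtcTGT
Ube2l6 (chr2:84806439-84806471, plus strand): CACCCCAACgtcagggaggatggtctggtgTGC
Ube2d3 (chr3:135459999-135460031, plus strand): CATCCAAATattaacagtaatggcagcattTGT
Ube2d1 (chr10:71258250-71258282, minus strand): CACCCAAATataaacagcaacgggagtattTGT
Ube2h (chr6:30241409-30242557, minus strand, across an intron): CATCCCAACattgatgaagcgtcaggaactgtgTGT
Over these 33 bases Ube2d3 matched Ube2d1 at 27 and Ube2s matched Ube2c at 24. Ube2l3, which serves ubiquitin, and Ube2l6, which serves ISG15, were identical at 22 of 33. The motif was not found in 15 genes, which were Ube2cbp, Ube2e1, Ube2e2, Ube2e3, Ube2j1, Ube2j2, Ube2o, Ube2q1, Ube2q2, Ube2ql1, Ube2u, Ube2v1, Ube2v2, Ube2w and Ube2z. Ube2v1 and Ube2v2 are E2 variants that lack the catalytic cysteine, and Ube2cbp encodes UBE3D, an E2-binding protein rather than an E2.

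Most of the family was expressed. Of the 37 genes 29, or 78.4%, reached 1 TPM in both libraries, where 39% of all protein-coding genes did. The median of the mean TPM was 32.6 over all 37 genes and 0.025 over all protein-coding genes. With only detected genes kept, the medians were 47.3 TPM for the E2 family and 20.5 TPM for protein-coding genes. Their summed TPM was 3885 in replicate 1 and 3219.9 in replicate 2, which is 0.389% and 0.322% of all TPM. Ube2s alone held 19.0% and 19.1% of that sum, while 7 genes had no counts at all. In the order of mean level, 17 of the 28 neighbouring pairs of detected genes overlapped in their library values, and only 11 pairs were apart.

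**Figure D1:**
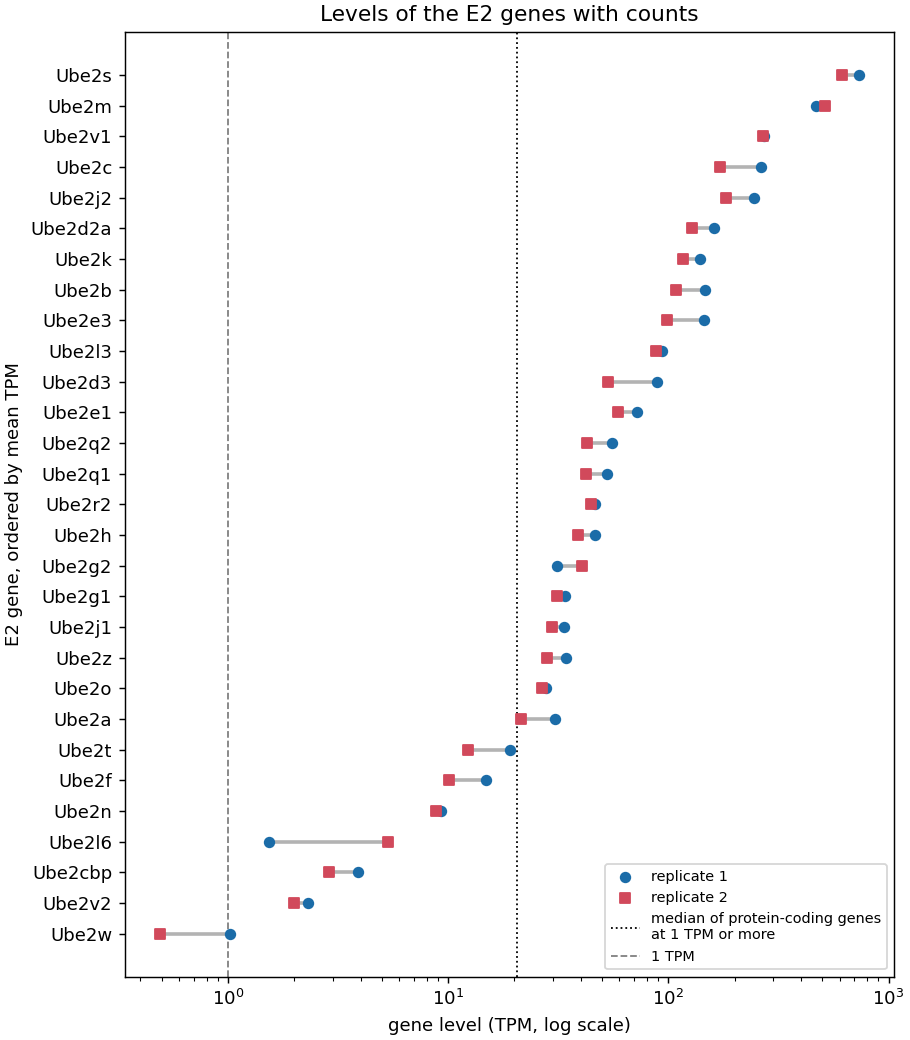
Level of 29 E2 genes with counts, in TPM on a log axis, with a circle for replicate 1 and a square for replicate 2 joined by a line, the dotted line at the median of protein-coding genes at 1 TPM or more (20.5 TPM) and the dashed line at 1 TPM, with 1 of the 30 genes with counts not drawn. Ube2s was highest at 737 and 615 TPM, and the widest gap among detected genes was that of Ube2l6, at 1.53 and 5.35 TPM.

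The general ubiquitin E2s, the Ube2d and Ube2e families with Ube2w, were represented by 4 of 10 genes. This was close to the 39% of all protein-coding genes that were detected. Ube2d enzymes work with many RING-type E3 ligases and place the ubiquitin that later enzymes extend. Ube2d2a was at 161 and 128 TPM in replicates 1 and 2, and Ube2d3 at 88.75 and 53.2 TPM. Ube2d2a was therefore 1.81 times and 2.40 times as high as Ube2d3 in replicates 1 and 2. Their close relatives Ube2d1 and Ube2d2b had no count in either library, although the active-site stretches of Ube2d3 and Ube2d2b differ at only 3 bases (30 of 33 identical). Ube2dnl1 and Ube2dnl2, 2 neighbouring genes on the X chromosome whose active-site stretches are identical at 33 of 33 bases, also had no count.

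Ube2e3 was at 145 and 98.95 TPM, and Ube2e1 at 72.4 and 58.8 TPM, so Ube2e3 was 2.00 times and 1.68 times as high. Ube2e2, the remaining member of that family, had no count. The leading transcript of Ube2e1 overlaps exons of Nkiras1 on the opposite strand over 51.0% of its length, and Nkiras1 was listed at 1.27 and 0.95 TPM. Ube2w, which joins ubiquitin to the amino end of proteins, lay at the detection limit with 1.02 and 0.49 TPM. It was the only E2 gene with counts that did not reach 1 TPM in both libraries.

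For the chains used in DNA repair and inflammatory signalling, the catalytic E2 Ube2n pairs with a variant, either Ube2v1 or Ube2v2. Ube2v1 was at 272 and 268 TPM, the smallest relative gap among the 10 highest genes. Ube2n reached only 9.29 and 8.78 TPM. The variant therefore outnumbered the catalytic partner 29.3-fold and 30.5-fold. Ube2v2 was lower still, at 2.32 and 1.99 TPM. Ube2v1 shares 59.9% of its 31-base stretches with other genes, and the read-through gene Gm20431 shares more of them than any other gene. Gm20431 was listed at 0 counts, so reads of the pair may have been assigned to Ube2v1. Ube2n shares 10.1% of such stretches with other genes, and a processed pseudogene, Ube2n-ps1, shares more of them than any other gene.

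The E2 pair of the anaphase-promoting complex, the E3 ligase that drives exit from mitosis, stood near the top. Ube2c starts ubiquitin chains on the targets of this complex and Ube2s extends them. Ube2s was the highest E2 gene, at 737 and 615 TPM (mean 676 ± 86.7, SD, n = 2), and Ube2c reached 263 and 172.5 TPM (mean 218 ± 63.8, SD, n = 2). Ube2s exceeded Ube2c 2.81-fold and 3.56-fold, and together they held 25.7% and 24.4% of the TPM of all E2 genes. Ube2c-202, its protein-coding leading transcript, held 99.85% and 99.68% of the gene's TPM. Exons of Ube2s share 183 bases with Rpl28 on the opposite strand, which was listed at 12344 and 12915 TPM. The leading Ube2s-201 shares 0 bases with it in M21. That transcript has 1238 bases in M21 and 858 as deposited, so the effect on the level of Ube2s could not be told. Of 17 genes of the anaphase-promoting complex and its regulators 16 were detected, where 39% of all protein-coding genes were. The list's median was 29.2 TPM. The activators Cdc20, at 313 and 232 TPM, and Fzr1, at 112 and 101 TPM, stood among the 4 highest with Anapc11 (201.5 and 293 TPM) and Anapc1 (132 and 95.96 TPM). Anapc10, a subunit that helps to bind targets, was at 0.41 and 0.18 TPM.

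The 3 E2s of DNA damage and histone ubiquitination were all detected, where 39% of all protein-coding genes were. Ube2b was at 146 and 109 TPM and its close relative Ube2a at 30.6 and 21.35 TPM. Both work with RAD18 at stalled replication forks and with RNF20 and RNF40 on histone H2B. Ube2b exceeded Ube2a 4.77-fold and 5.09-fold by gene TPM, and 2.38-fold and 2.00-fold when only protein-coding transcripts were summed, an alternative chosen after seeing the data. Their active-site stretches were identical at 28 of 33 bases. Ube2t, the E2 of the Fanconi anaemia pathway, was at 19.0 and 12.25 TPM, while Fancl, its E3 partner, was at 0.87 and 0.56 TPM.

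All 4 E2s of protein disposal at the endoplasmic reticulum were detected, where 39% of all protein-coding genes were. Ube2j2, anchored in that membrane, was highest at 245 and 182 TPM, which was 7.32 and 6.17 times the level of Ube2j1, the other membrane-anchored enzyme, at 33.45 and 29.5 TPM. Ube2g2 was at 31.1 and 40.5 TPM and Ube2g1 at 33.9 and 31.3 TPM. Ube2g2 was among the 3 detected genes with the higher TPM in replicate 2, the others being Ube2m and Ube2l6. Syvn1, an E3 of the same pathway, was at 101 and 91.8 TPM. For Ube2j2 14.1% of its 31-base stretches also lie in other genes, and the processed pseudogene Gm5801 shares more of them than any other gene. How far this affects the level of Ube2j2 was not tested.

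Ube2k, an E2 that builds degradative chains, was at 139 and 117 TPM. Ube2r2, which extends chains on targets of cullin-RING ligases, was at 46.3 and 44.3 TPM. Cdc34, the closest relative of Ube2r2 and outside the naming rule, was about as high as the top of the family, at 468 and 396 TPM. Ube2l3, which passes ubiquitin to the cysteine of RBR and HECT ligases, was at 93.9 and 88.35 TPM, and Arih2, an RBR ligase, at 161 and 124 TPM. Ube2l3 and Ydjc, a gene on the opposite strand at 95.2 and 67.6 TPM, share 7.17% of the leading Ube2l3 transcript.

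The main E2 for NEDD8, the modifier that switches on cullin-RING ligases, was also near the top. Ube2m was at 468 and 515 TPM (mean 491 ± 33.8, SD, n = 2), below both values of Ube2s (737 and 615 TPM) and above both values of Ube2v1 (272 and 268 TPM). Its E1 was far lower. Ube2m exceeded Uba3 254-fold and 229-fold, and Nae1 84.1-fold and 56.4-fold. These 2 genes, which encode the subunits of the NEDD8 E1, were at only 1.84 and 2.25 TPM and at 5.56 and 9.13 TPM. Ube2f, the other E2 for NEDD8, was at 14.9 and 10.1 TPM, so that Ube2m was 31.4 and 51.0 times as high. Ube2m serves RBX1 ligases and Ube2f serves RBX2, encoded by Rnf7. Rbx1 was at 6.46 and 18.6 TPM and Rnf7 at 60.5 and 50.7 TPM, the reverse order of their E2s.

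**Figure D2:**
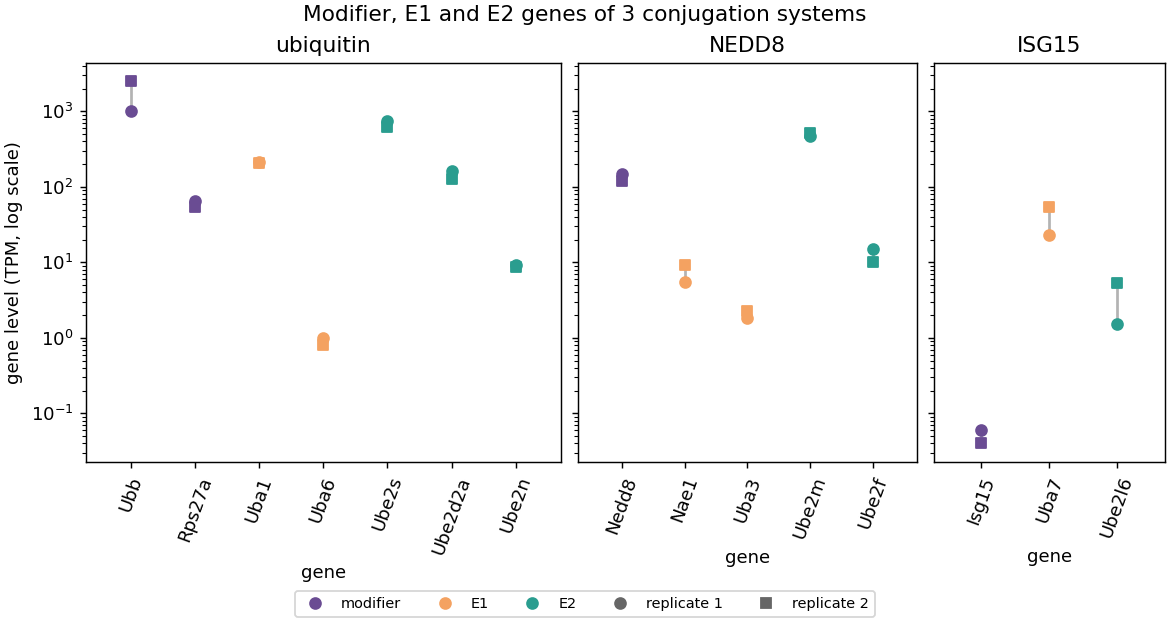
Levels in TPM on a log axis of modifier (purple), E1 (orange) and E2 genes (green) of the ubiquitin, NEDD8 and ISG15 systems, with a circle for replicate 1 and a square for replicate 2. In the NEDD8 system Ube2m (468 and 515 TPM) lay far above the E1 genes Uba3 and Nae1, and in the ISG15 system Uba7 (23.4 and 53.5 TPM) lay above Ube2l6, with Isg15 at 0.06 and 0.04 TPM.

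Ube2l6 carries ISG15, a modifier induced by interferon, and is also known from late red cell precursors. Replicate 1 had 1.53 TPM of it and replicate 2 had 5.35 TPM (mean 3.44 ± 2.70, SD, n = 2), resting on 127 and 339 estimated counts. Its relative Ube2l3 was 61.3 times as high in replicate 1 and 16.5 times as high in replicate 2. Uba7, the E1 for ISG15, was at 23.4 and 53.5 TPM, 15.3 times and 10 times the level of Ube2l6. The modifier itself, Isg15, was at 0.06 and 0.04 TPM and Herc6, its mouse E3 ligase, at 0.01 and 0 TPM. Of 12 genes of the ISG15 pathway and interferon response 5 were detected, close to the 39% of all protein-coding genes. Among these 5 were Irf9 (18.1 and 39.3 TPM) and Irf7 (29.9 and 24.9 TPM). Usp18 was at 0.07 and 0.14 TPM, Ifit1 at 0.01 and 0 TPM, and Ifit3, Oasl2 and Rsad2 were listed at 0 in both.

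By gene TPM the E2 genes best known from red cells, Ube2o and Ube2h, lay below the median of the detected E2 genes, 47.3 TPM. Against the median over all 37 genes, 32.6 TPM, Ube2h lay above and Ube2o below. Ube2o lies at chr11:116537740-116581447 on the minus strand (mm10) and was at 27.9 and 26.6 TPM (mean 27.25 ± 0.89, SD, n = 2), with 6814 and 5020 estimated counts. Ube2h, at chr6:30211289-30304539 on the minus strand, was at 46.6 and 38.7 TPM (mean 42.7 ± 5.58, SD, n = 2). Maea, a subunit of the E3 complex of Ube2h, was at 47.1 and 79.4 TPM, so that Ube2h stood at 0.99 of Maea in replicate 1 and 0.49 in replicate 2 by gene TPM. Protein-coding transcripts of Ube2h reached only 3.92 and 1.97 TPM, and those of Ube2o 11.2 and 12.7 TPM. Ube2z, a large E2 that is charged by the E1 Uba6, was at 34.1 and 28.02 TPM, while Uba6 was at 0.99 and 0.80 TPM. Uba1, the main E1 for ubiquitin, was at 211 and 209 TPM, 213 times and 261.3 times the level of Uba6.

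Ube2q2, at 55.5 and 42.9 TPM, and Ube2q1, at 52.5 and 42.05 TPM, were the detected members of the Q family, and their values overlapped. Ube2q2 shares 19.7% of its 31-base stretches with other genes, and the processed pseudogene Gm4895 shares more of them than any other gene. Ube2ql1 of the same family and Ube2u had no count. Ube2cbp was at 3.89 and 2.89 TPM. For the 7 genes at 0 in both libraries, Ube2d1, Ube2d2b, Ube2dnl1, Ube2dnl2, Ube2e2, Ube2ql1 and Ube2u, a count of 0 allows up to 3 counts, or 4.35e-06% of the counts of replicate 1 and 5.78e-06% of those of replicate 2. Their GC content, 42.9% to 60.2%, lay within that of the 8 highest genes, 40.6% to 63.4%, but this rests on Ube2k at 40.6%. Without Ube2k, the lowest GC content among these highest genes was 45.6%, in Ube2d2a. Ube2u (42.9%) and Ube2dnl1 (45.5%) lay below that value. Whether GC content played a part in the counts of 0 was not tested.

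The TPM of a gene sums all of its transcripts, and not all of them are annotated as coding. Of the 29 detected genes 28 had a leading transcript, the one with the highest mean share of the gene's TPM, whose class is known from GENCODE M21. In 5 of these 28 it was not protein-coding, where 18.9% of detected protein-coding genes had such a leading transcript, so the share in the E2 genes was near the background. They were Ube2m, Ube2b, Ube2h, Ube2g1 and Ube2o. Protein-coding transcripts held over 90% of TPM in both libraries in 18 detected genes and under 50% in both in 4, Ube2h, Ube2g1, Ube2o and Ube2b. These counts were not taken over all detected protein-coding genes, so they cannot be called particular to the E2 genes. The leading Ube2k transcripts are not in M21 and their class is unknown here.

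**Figure D3:**
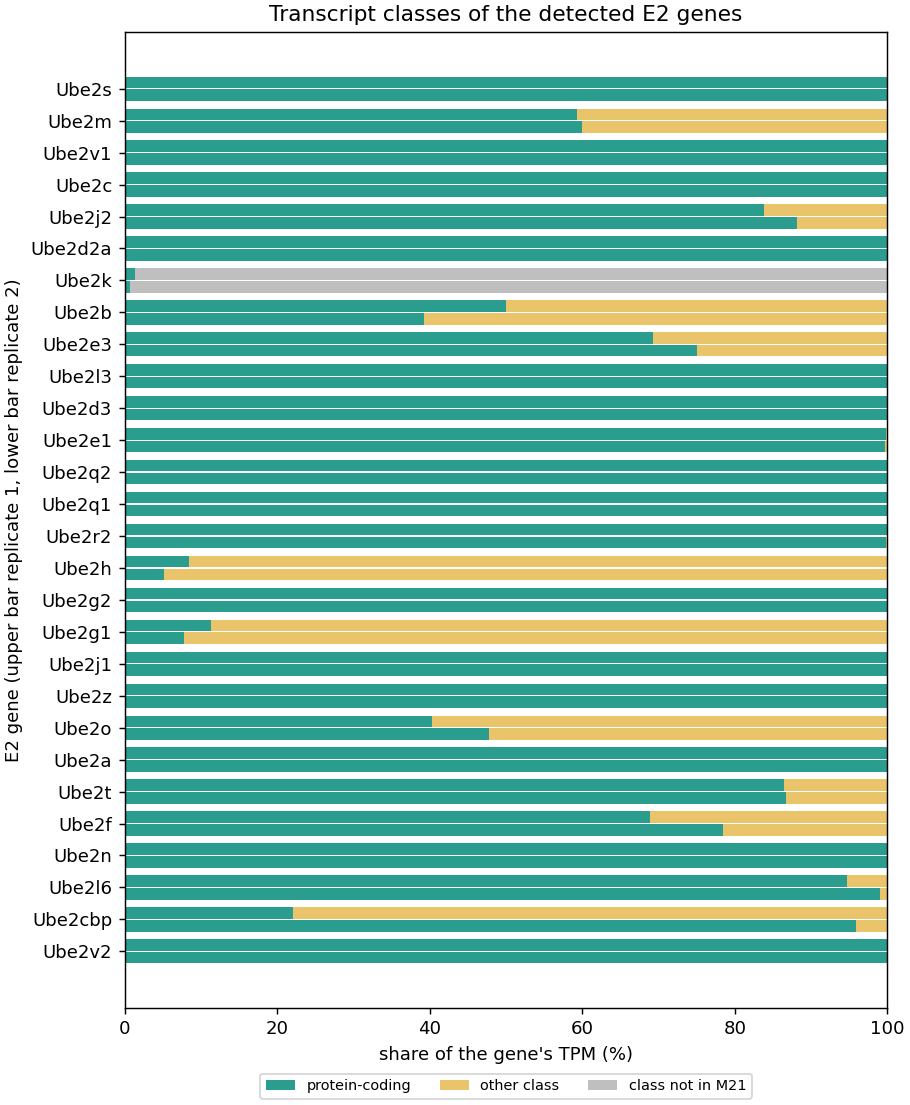
Share of gene TPM, in percent, for 28 detected E2 genes, held by protein-coding transcripts (green), by transcripts of another class (yellow) and by transcripts whose class is not in M21 (grey), with replicate 1 as the upper bar and replicate 2 as the lower, and with 1 of the 29 detected genes not drawn. In Ube2h coding transcripts held 8.41% and 5.09% and in Ube2g1 11.3% and 7.79%, and in Ube2cbp the share was 22.1% in replicate 1 and 95.8% in replicate 2.

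Ube2h showed the lowest coding share among genes of known class. Its TPM lay mostly in Ube2h-204, a processed transcript of 803 bases, with 91.59% and 94.92%, and coding transcripts reached 3.92 and 1.97 TPM. By estimated counts, which do not correct for length, coding transcripts held 38.5% and 26.9%. Ube2h-204 has 5 exons where the coding Ube2h-202, of 4657 bases, has 7, holds 69.0% of the 549 coding bases and none of the 3′ UTR, and lacks the histidine codon of the active site.

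Ube2g1-202, a retained-intron transcript of 1469 bases, held 88.70% and 92.21% of the TPM of Ube2g1. It contains all 510 coding bases of the gene, and 44.1% of its length is intronic. By estimated counts coding transcripts of Ube2g1 held 26.5% and 19.3%. Coding transcripts of Ube2g1 reached 3.83 and 2.44 TPM, so Ube2g2 exceeded Ube2g1 8.11-fold and 16.6-fold in protein-coding TPM although their gene TPM were alike. For Ube2o, Ube2o-202, a processed transcript of 3550 bases, held 59.75% and 52.30% of TPM, and the coding Ube2o-201 held the rest, at 11.2 and 12.7 TPM. Ube2o-202 has 9 of the 18 exons, 58.0% of the 3864 coding bases and 1307 bases of 3′ UTR. By estimated counts Ube2o-201 held 50.1% and 57.6% of the gene.

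In Ube2b, Ube2b-203, a processed transcript of 516 bases, held 48.74% and 59.94%, while coding transcripts reached 73.0 and 42.7 TPM. By estimated counts coding transcripts of Ube2b held 64.7% and 48.2%. Ube2b-203 has 2 exons, holds 27.4% of the 456 coding bases and neither active-site codon, and 70.9% of it is intronic. In Ube2e3 a retained-intron transcript, Ube2e3-205, held 28.5% and 24.9% without leading. The bases where 3 of these transcripts leave the coding one are shown because they tell the forms apart, with the last 15 shared bases in lower case and the 15 bases after them in capitals. All 3 genes lie on the minus strand, and the position given is the last shared base on mm10.
Ube2h-204 (chromosome 6, position 30260929): agtctccatctatagGTCAGGAACTGTGTG
Ube2h-202, coding: agtctccatctatagGATTCATGAATAAAA
Ube2o-202 (chromosome 11, position 116543866): tggtggacaagcgagAGCTGCCCAGACCCT
Ube2o-201, coding: tggtggacaagcgagTCCAGAGCTGCCCAG
Ube2b-203 (chromosome 11, position 51997818): tgcagttatatttggGTGAGTTGAGCTAGG
Ube2b-202, coding: tgcagttatatttggACCAGAAGGGACACC
Ube2h-204 skips an exon of 40 coding bases at that point, and Ube2o-202 enters the same exon as the coding transcript 5 bases later. Ube2b-203 runs on into the intron, beginning with the GT of a splice donor site.

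The leading transcript differed between the libraries in 3 of the 29 detected genes, Ube2m, Ube2cbp and Ube2v2, where 12.6% of protein-coding genes at 1 TPM or more did so. In Ube2m the retained-intron transcript Ube2m-206 led in replicate 1 with 40.08%. In replicate 2 it held 22.39% and came after the coding Ube2m-208, at 34.44%. Ube2m-206 has 600 bases as deposited and 1338 in M21, so its class was read from a model of another length. By estimated counts Ube2m-206 held 19.7% and 10.9%. Another retained-intron form, Ube2m-205, was at 0 in replicate 1 and 17.30% in replicate 2. The coding share of Ube2m as a whole was close in both libraries, 59.3% and 60.0% of TPM. By estimated counts it was 80.1% and 75.9%. In Ube2cbp a transcript annotated for nonsense-mediated decay, Ube2cbp-202, held 77.83% in replicate 1 and 4.35% in replicate 2, on 176 and 5.53 estimated counts. Ube2v2 was led by the coding Ube2v2-204 in replicate 1 (53.91%) and by the coding Ube2v2-201 in replicate 2 (49.13%), and the latter was at 0 in replicate 1. Ube2v1, without a change of leader, went from 86.50% Ube2v1-201 in replicate 1 to 64.84% in replicate 2. Ube2l6-201, the coding form, held 94.77% and 99.22% of Ube2l6.

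The spread between the libraries was measured as the ratio of replicate 2 to replicate 1 in estimated counts after TMM scaling, which corrects for depth and for a few very abundant genes. It could be taken for 30 E2 genes, those whose counts averaged 10 or more. Only Ube2l6 was at least 1.5-fold higher in replicate 2, where 15.9% of all 10861 such genes were. Its ratio was 3.81, with a 95% Clopper-Pearson counting interval of 3.10 to 4.71. Ube2d3, Ube2v2 and Ube2w were at least 1.5-fold higher in replicate 1, where 7.41% of all such genes were. The ratio was 0.63 for Ube2d3 (interval 0.61 to 0.65), 0.65 for Ube2v2 (0.52 to 0.80) and 0.55 for Ube2w (0.37 to 0.78). Intervals of the latter pair reach past the 1.5-fold line. Scaled to library totals, Ube2c, Ube2b and Ube2t joined them, which made 6 genes higher in replicate 1, with 13.1% of all genes then higher in replicate 2 and 11.2% in replicate 1.

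Most E2 genes leaned the same way by less than that, and by TPM 26 of the 29 detected genes were higher in replicate 1. The ratio was below 1 in 21 of 30 genes, where 50.8% of all tested genes were below 1, and in 25 of 30 with library totals. The median log2 ratio was -0.23 for the E2 genes and -0.01 for all tested genes, and -0.34 and -0.12 with library totals. By TPM with a pseudocount of 1 it was -0.29 and -0.09. With library totals and by TPM all tested genes thus also shifted toward replicate 1. The share of all genes higher in replicate 1 was not counted in either setting. The median absolute log2 ratio was 0.28 in the E2 genes and 0.30 in all. Ube2g2 (1.40), Ube2m (1.22) and Ube2v1 (1.13) lay above 1, and Ube2o, whose TPM was slightly lower in replicate 2, was at 1.05. Ube2o, Ube2l3, Ube2r2 and Ube2n turned from just above 1 to below 1 with library totals. Across the 30 genes, which share the same libraries, Spearman's rho between GC content and the ratio was 0.52, where it was 0.25 over tested protein-coding genes, and its part in the result was not tested.

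**Figure D4:**
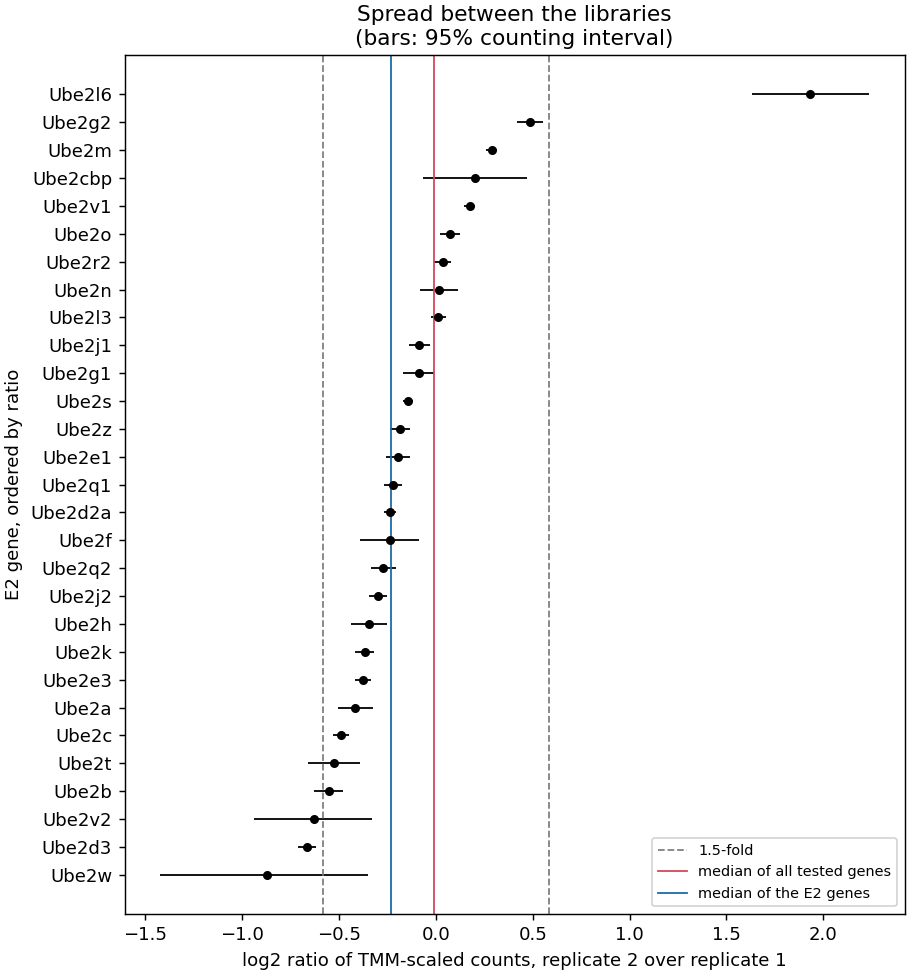
Log2 ratio of TMM-scaled counts, replicate 2 over replicate 1, for 29 of the 30 E2 genes whose counts averaged 10 or more, with bars for the 95% counting interval, dashed lines at 1.5-fold, a red line at the median of all tested genes (-0.01) and a blue line at the median of the E2 genes (-0.23). Ube2l6 stands alone on the right, and 20 of the 29 points drawn lie left of 0.

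The other genes of the pathway were read from lists of partners. Of 9 E1 genes 8 were detected, where 39% of all protein-coding genes were. Their median was 38.5 TPM, with Uba1, Uba2 (111 and 86.2 TPM), Sae1 (89.99 and 67.0 TPM) and the autophagy E1 Atg7 (42.95 and 44.0 TPM) the highest. Of 9 E2 enzymes and variants outside the naming rule 6 were detected, against the same 39%, and the list's median was 14.7 TPM. After Cdc34 came Tsg101 (116 and 72.75 TPM), an E2 variant of endosomal sorting, Ufc1 (51.9 and 63.8 TPM), the E2 for UFM1, and Birc6 (18.9 and 37.3 TPM), a giant E2 with E3 activity that blocks cell death. Cdc34b, Atg10 and Uevld stayed below 1 TPM, at 0.06 and 0.14, 0.18 and 0.15, and 0.25 and 0.27 TPM.

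Among 27 E3 ligase genes that work with particular E2s 25 were detected, where 39% of all protein-coding genes were. The list's median was 21.1 TPM. Arih2, Syvn1, Stub1 (68.9 and 67.6 TPM) and Maea were highest, and Fancl and Herc6 were under 1 TPM. Otub1, which binds and blocks Ube2n and other E2s, was at 163 and 151 TPM, far above Ube2n, and its relative Otub2 at 3.73 and 2.74 TPM.

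Some modifier genes differed widely between the libraries. Of 9 modifier genes tested 4 were at least 1.5-fold higher in replicate 2, where 15.9% of all tested genes were. The E2 genes gave 1 of 30, and the difference between the lists was not tested. Ubb, a polyubiquitin gene, was at 1000.2 and 2509.6 TPM in replicates 1 and 2, with a scaled ratio of 2.88. Sumo2, at 339 and 352 TPM, and Nedd8, at 147 and 118 TPM, stayed under 1.5-fold. Genes for ubiquitin hold near-identical repeats of the same coding unit, so reads may have been divided between them by the authors' counting. Among the other lists, replicate 2 was at least 1.5-fold higher in 5 of 17 genes of the anaphase-promoting complex, 2 of 26 E3 genes, 2 of 5 genes of the ISG15 pathway and interferon response, 1 of 9 E1 genes (Uba7, also in the ISG15 list) and none of 8 other E2 genes, against the same 15.9%. Replicate 1 was at least 1.5-fold higher in 1, 1, 0, 0 and 1 of them, where 7.41% of all tested genes were.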

How the data were processed

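RNA-seq of polyadenylated RNA from 2 libraries of 1 group was used, with a gene table and a transcript table each. Build mm10 and annotation M4 are stated per the labels and readme files. The sources used here do not name an aligner, a quantifier or a strand setting. Expected counts are fractional estimates of fragments per feature, per the file headers, and were rounded to whole numbers for scaling. TPM, as deposited by the authors, is a level per effective length scaled to a fixed total, and FPKM was deposited by the authors beside it. Isoform shares were deposited by the authors as a percent of each gene's TPM.

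Symbols, classes and structures came from GENCODE M21 by identifier, whose transcripts can differ from M4, and structures were described only where the lengths were equal. Detection meant 1 TPM in both libraries. TMM scaling used edgeR 4.0.16 in R 4.3.3, and counting intervals used scipy 1.17.1 at 95%, which cover counting error only. The scaling and fold calls were tested on simulated data. Shared sequence was the percent of a gene's 31-base stretches found in transcripts of other genes. Members and lists were chosen with earlier results of these data known. All E2 genes were to be named, and of the partner lists the 4 highest and those under 1 TPM. Some genes that this rule names are not reported here, though counts and medians include them. Uba3, Nae1, Rbx1, Rnf7, Nedd8 and Ube2e3-205, the level ratios and the pairs of active-site sequences were named after their values were seen. Alternatives were other TPM minimums, FPKM, posterior mean TPM, CPM, other count filters, library totals, DESeq2 1.42.0 size factors, a TPM pseudocount of 1, each library alone, and protein-coding transcripts only. Protein sequences were not used here.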

Additional observations from a re-analysis of the deposited data

Results flagged for a closer look

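Ube2d-ps, an unprocessed pseudogene on chromosome 11 that is transcribed, lies outside the E2 genes because it is not protein-coding, yet it gave a signal. The libraries held 7.06 and 5.12 TPM of it (mean 6.09 TPM), on 703 and 391 estimated counts. This lies above the level that a count of 0 allows and above the levels of Ube2l6, Ube2v2 and Ube2w in replicate 1. The other 3 features with a matching symbol and another class, Ube2d4, Ube2nl and Ube2uos, had no count in either library.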

How the results depend on the processing

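The number of E2 genes detected, 29, stayed at 29 with a minimum of 0.5 TPM, FPKM, posterior mean TPM and CPM, was 26 with a minimum of 5 TPM, and 29 to 30 with either library alone. Counting protein-coding transcripts only, an alternative chosen after seeing the data, 27 were detected. Their median level of 32.6 TPM became 46.3 TPM with a mean of at least 10 counts and 28.5 TPM with protein-coding transcripts only. The median was 31.3 to 33.9 TPM with either library alone. In FPKM, a unit on another scale, it was 28.4. Their share of TPM ran from 0.322% to 0.389% and the number with a non-coding leading transcript from 4 to 6. With library totals 6 genes and not 3 were at least 1.5-fold higher in replicate 1, as Ube2c, Ube2b and Ube2t crossed the line, while size factors moved 0 of 30 genes across it. With a minimum of 5 TPM the leading transcript differed between the libraries in 1 gene, since Ube2cbp and Ube2v2 were left out. By posterior mean TPM 1 of 30 levels moved by more than the SD between libraries. By FPKM 11 of 30 did, but FPKM was lower than TPM by nearly the same factor in each gene. Ube2s, for example, was at 588 in FPKM and 676 in TPM, and Ube2d3 at 61.8 and 71.0. The count of 11 thus reflects the unit and small SDs, and shows no dependence of the levels on processing. No gene at least 1.5-fold apart changed direction with library totals or size factors, but the log2 ratio changed sign with library totals in 4 genes close to 0, Ube2o (-0.03), Ube2r2 (-0.07), Ube2n (-0.09) and Ube2l3 (-0.09). Depth limits Ube2w, Ube2v2, Ube2cbp and Ube2l6, the genes with the widest counting intervals. No paired analysis was possible because the design has 1 group.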
